A study of Mus musculus with 16 samples.

Results

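The genes described here are 10 genes of calcium, magnesium and vitamin D handling in the kidney, taken from the 55414 genes of a table of RNA sequencing counts. They were chosen by symbol, with their levels across the groups in view (CPM, a count scaled to the size of its library): the calcium transport genes Trpv5, Calb1, S100g, Slc8a1 and Atp2b1, the magnesium channel gene Trpm6, the vitamin D genes Vdr, Cyp24a1 and Cyp27b1, and the receptor gene Pth1r. All 10 were matched to a gene ID and all 10 passed the filter on low counts. Kidney cortex came from male wild-type C57BL/6J mice, an inbred laboratory strain, in 4 groups of 4 libraries. Sedentary mice served as controls, and the other groups ran on a treadmill by force, for 40 minutes at 70% of capacity, over 1 day (labelled 24 h), 1 week (1 wk) or 2 weeks (2 wk). Ages are not among the labels, which also do not say how long after the last run the tissue was taken. Sample titles carry an unexplained letter, G in sedentary and F in exercised mice, and library numbers run in group order, so what these mark cannot be told apart from exercise. Libraries are not stated to come from separate animals, so p-values measure only the spread between libraries, which may be partly technical.

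In the distal convoluted and connecting tubule, calcium enters the cell from the urine through the channel TRPV5, is carried across it by the calbindins, and leaves on the blood side through the sodium-calcium exchanger NCX1 (Slc8a1) and the plasma membrane calcium pump (Atp2b1). Magnesium enters the distal convoluted tubule through TRPM6. Parathyroid hormone acts through its receptor (Pth1r), chiefly in the proximal and distal tubule; active vitamin D is made by the hydroxylase CYP27B1, is broken down by CYP24A1, and acts through the vitamin D receptor (Vdr), which induces Cyp24a1 and the calbindin genes.

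Per library, total counts ran from 39766260 to 66852397. Of the marker lists checked against the labelled kidney cortex, 7 proximal tubule markers summed to 42359 to 57469 CPM in the 16 libraries and 4 podocyte markers to 150.1 to 261 CPM, whereas 4 adrenal cortex markers reached at most 2.35 CPM, 3 fat markers 6.15 CPM and 3 skeletal muscle markers 0.102 CPM. Cyp11b2 of the adrenal list was at 0 in every library. Slc14a2, a marker of the inner medulla that encodes urea transporters, was at 0.533, 9.22, 58.2 and 16.8 CPM in the 2 wk libraries against 38.6 to 49.0 CPM in the sedentary ones, and the part of this spread in the 2 wk results was not tested. In bulk tissue, fewer cells of a type and less RNA per cell cannot be told apart. Libraries also differed in the balance of long and short genes. A score was taken for each as the median log2 deviation from the mean of the 2589 genes of longest exonic length (7503 bases or more) minus that of the 2589 shortest (2364 bases or less). This score was chosen after the data were seen. It was 0.41 in the 1 wk library 4 and 0.44 in the 2 wk library 2, −0.44 in the 1 wk library 3, and between −0.23 and 0.13 in the other 13 libraries. Some results below are also given without the 1 wk library 3 or 4 or the 2 wk library 2.

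The promoters of 4 of the genes whose values stand out below are shown side by side: Slc8a1, Trpv5 and Cyp27b1, whose groups did not all overlap, and S100g, the highest per kilobase. The sequences are those of RefSeq on GRCm38.p6, in a table that held windows for 8 of the 10 genes. Each window runs 5′ to 3′ on the strand of the gene, from 250 bases before the annotated start to 50 after it. Capitals mark matches, on either strand, to hexamers of vitamin D receptor elements (spelled AGGTCA, or with a changed base as AGTTCA, otherwise written GGGTCA, or finally read as GGTTCA), to the promoter motif CCAAT, to the promoter motif TATAAA, to the cyclic AMP element TGACGTCA, and to the steroid receptor hexamer AGAACA. The S100g window is chrX:162964550-162964849 on the minus strand, that of Trpv5 chr6:41680674-41680973 on the minus strand, that of Slc8a1 chr17:81738338-81738637 on the minus strand, and that of Cyp27b1 chr10:127047996-127048295 on the plus strand.
S100g: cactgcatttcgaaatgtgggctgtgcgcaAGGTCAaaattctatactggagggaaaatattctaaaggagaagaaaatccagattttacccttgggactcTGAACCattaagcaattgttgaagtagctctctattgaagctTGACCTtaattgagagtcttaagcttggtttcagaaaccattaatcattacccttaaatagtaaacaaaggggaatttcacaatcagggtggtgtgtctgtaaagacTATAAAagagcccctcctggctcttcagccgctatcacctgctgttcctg
Trpv5: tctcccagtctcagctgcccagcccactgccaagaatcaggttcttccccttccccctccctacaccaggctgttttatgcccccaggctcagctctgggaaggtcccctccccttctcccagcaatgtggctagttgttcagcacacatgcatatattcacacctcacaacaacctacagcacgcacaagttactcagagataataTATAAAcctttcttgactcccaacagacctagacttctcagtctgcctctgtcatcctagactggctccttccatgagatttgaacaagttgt
Slc8a1: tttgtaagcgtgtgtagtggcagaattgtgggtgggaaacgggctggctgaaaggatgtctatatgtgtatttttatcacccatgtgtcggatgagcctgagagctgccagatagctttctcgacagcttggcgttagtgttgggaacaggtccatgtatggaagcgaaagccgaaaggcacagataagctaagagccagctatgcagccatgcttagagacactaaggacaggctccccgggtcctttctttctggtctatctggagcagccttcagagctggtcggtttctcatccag
Cyp27b1: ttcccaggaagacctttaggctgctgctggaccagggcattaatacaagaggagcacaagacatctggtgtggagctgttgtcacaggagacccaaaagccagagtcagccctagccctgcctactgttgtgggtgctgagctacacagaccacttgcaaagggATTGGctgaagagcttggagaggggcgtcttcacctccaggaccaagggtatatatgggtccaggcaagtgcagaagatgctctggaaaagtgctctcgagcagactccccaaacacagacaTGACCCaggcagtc
The S100g window held 3 of the vitamin D receptor hexamers, at positions −220, −149 and −107 from the start, and the Cyp27b1 window 1, at position 37. At least 1 such hexamer was found in 43.7% of the 32851 windows in the table. No direct repeat of these hexamers with 3 bases between them was found in any of the 4 windows, a pattern present in 0.0396% of all windows. TATAAA stood at position −43 in Trpv5 and at position 1 in S100g (13.6% of all windows hold it), and CCAAT, read on the other strand, at −86 in Cyp27b1 (37.4%). TGACGTCA (1.79% of windows) and AGAACA (19.0%) were found in none of the 4. Matches describe letters only, and the Slc8a1 window held none of those searched.

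Levels of the 10 genes spanned a wide range. Per kilobase of exon, the order in sedentary cortex was led by S100g, which encodes the small calbindin-D9k, at 1242 ± 220.1 CPM per kb (SD, n = 4), then Pth1r at 347 ± 15.5 and Calb1, which encodes calbindin-D28k, at 56.9 ± 12.7 CPM per kb. Vdr followed at 41.97 ± 5.99 and Cyp24a1 at 26.5 ± 8.69 CPM per kb. The other 5 were low: Slc8a1 at 2.98 ± 0.64, Trpv5 at 2.63 ± 0.54, Cyp27b1 at 2.23 ± 0.37, Atp2b1 at 2.05 ± 0.11 and Trpm6 at 1.43 ± 0.30 CPM per kb. From Slc8a1 to Atp2b1, neighbours in this order differed by less than the larger of their SDs. In the 2 wk group Slc8a1 (5.44 ± 1.09) and Trpv5 (4.47 ± 0.78) kept their order and Cyp27b1 (1.97 ± 0.53) came below Atp2b1 (2.08 ± 0.52 CPM per kb), by less than the SD of either. Length here counts all annotated exons of a gene, 18807 bases for Slc8a1, 15218 for Atp2b1 and 3243 for Trpv5, and the order depends on it. In CPM alone, sedentary Slc8a1 (56.0) and Atp2b1 (31.2) stood above Trpm6 (11.05), Trpv5 (8.52) and Cyp27b1 (5.73). The genes lie on 9 chromosomes, with only Atp2b1 and Cyp27b1 on the same one, chromosome 10 of GRCm38, where they are far apart (Atp2b1 from 98914406 to 99026143, Cyp27b1 from 127048250 to 127053006).

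Across groups, edgeR's quasi-likelihood test at an adjusted p under 0.05 called none of the 10 genes in any of the 6 comparisons between groups or over all groups together. The background was as sparse: it called 0% of 16126 genes in each comparison with sedentary mice, at 1 wk against 24 h and at 2 wk against 1 wk, and 0.0124% both at 2 wk against 24 h and over all groups. At an unadjusted p under 0.05 the count was 1 of 10 at 24 h against sedentary mice (8.92% of all genes tested), 1 of 10 at 1 wk (6.05%) and 3 of 10 at 2 wk (7.26%). It was 0 of 10 at 1 wk against 24 h (7.15%), 3 of 10 at 2 wk against 1 wk (4.58%) and 3 of 10 at 2 wk against 24 h (9.61%). Over all groups it was 3 of 10 (8.73%). At an adjusted p under 0.05 DESeq2 called Cyp27b1 at 24 h against sedentary mice, where it called 0.533% of all genes tested, and Trpv5 and Slc8a1 at 2 wk, where it called 0.211%. It also called Cyp27b1 at 2 wk against 1 wk (0.0248% of all genes), and Slc8a1 and Cyp27b1 both at 2 wk against 24 h (0.242%) and over all groups (1.01%). It called none of the 10 at 1 wk against sedentary mice (0.093%) or against 24 h (0.366%). Since the genes were chosen with these values in view, nothing is read from those counts, and the differences below are descriptions with standard errors (SE) and no p. The 3 comparisons with sedentary mice share their control libraries.

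Slc8a1, the exchanger that moves calcium out of distal tubule cells, stood at 73.2, 52.6, 53.0 and 45.3 CPM in the sedentary libraries. At 24 h it was at 71.5, 59.2, 42.3 and 47.9 CPM and at 1 wk at 59.9, 78.5, 54.1 and 80.9 CPM. At 2 wk the values were 123, 83.8, 85.6 and 116 CPM. Every 2 wk library lay above every other library of the series, and the other 3 groups overlapped. The groups at 2 wk and in sedentary mice did not overlap in 4.91% of all genes tested, and here in 2 of 10, Slc8a1 and Trpv5. At 2 wk against 1 wk that held for Slc8a1 and Cyp27b1 (1.59% of all genes), and at 2 wk against 24 h for the same pair (3.26%). Slc8a1 was 1.82-fold higher at 2 wk than in sedentary mice (log2 fold change 0.87 ± 0.18, SE), 1.85-fold higher than at 24 h (0.89 ± 0.18) and 1.495-fold higher than at 1 wk (0.58 ± 0.18). Against sedentary mice the log2 fold change was −0.02 ± 0.18 at 24 h and 0.29 ± 0.18 at 1 wk. Leaving out any single library kept the fold at 2 wk between 1.70 and 2.03.

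Trpv5, the channel of calcium entry, stood at 10.2, 8.54, 9.21 and 6.12 CPM in sedentary mice and at 14.01, 11.1, 8.91 and 9.68 CPM at 24 h. It was at 8.27, 12.4, 9.27 and 13.9 CPM at 1 wk and at 17.3, 11.5, 13.4 and 15.8 CPM at 2 wk. The 2 wk libraries all lay above the sedentary ones, but overlapped those of 24 h and 1 wk. The fold against sedentary mice was 1.70 at 2 wk (log2 0.76 ± 0.19, SE), and 1.28 both at 24 h (0.36 ± 0.19) and at 1 wk (0.36 ± 0.19). The range of the 2 wk fold without any single library was 1.55 to 1.82.

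Calb1 was higher in mean in each exercised group but the libraries overlapped. Its values were 339, 312, 248 and 203 CPM in sedentary mice, 438, 289, 380 and 259 CPM at 24 h, 281, 456, 381 and 339 CPM at 1 wk, and 523, 252, 414 and 454 CPM at 2 wk. The 2 wk library 2 was the lowest of its group and lay within the sedentary range. The log2 fold change was 0.31 ± 0.21 at 24 h, 0.40 ± 0.21 at 1 wk and 0.58 ± 0.21 at 2 wk (SE), and at 2 wk it ranged from 0.44 without library 1 to 0.75 without library 2.

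S100g, the most abundant of the genes per kilobase, varied widely between libraries of the later groups. It stood at 683, 666, 585 and 451 CPM in sedentary mice and at 645, 524, 828 and 581 CPM at 24 h. At 1 wk it was at 552, 1141, 999 and 459 CPM, and at 2 wk at 1053, 434, 769 and 900.4 CPM. The 1 wk library 4 and the 2 wk library 2 were the lowest of their groups, and these are the libraries with the highest score for long transcripts. S100g has the shortest exonic length of the 10 genes, 480 bases. Its log2 fold change was 0.11 ± 0.28 at 24 h, 0.40 ± 0.28 at 1 wk and 0.40 ± 0.28 at 2 wk. Without those libraries it was 0.60 at 1 wk and 0.60 at 2 wk. Without the highest library of each group it was 0.17 at 1 wk (library 2) and 0.23 at 2 wk (library 1).

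Atp2b1, a ubiquitous calcium pump gene with 15218 exonic bases, was close to level across groups, with means of 31.2 ± 1.69 CPM in the sedentary libraries, 30.1 ± 2.11 at 24 h, 32.1 ± 6.17 at 1 wk and 31.6 ± 7.89 CPM at 2 wk. The wider spread of the later groups came from 40.8 CPM in the 1 wk library 4 and 43.4 CPM in the 2 wk library 2, against 26.6 to 32.9 CPM in the other 14 libraries. Log2 fold changes against sedentary mice were −0.05 ± 0.14, 0.04 ± 0.14 and 0.02 ± 0.14 in order of duration. Without the 1 wk library 4 the value at 1 wk was −0.09, and without the 2 wk library 2 that at 2 wk was −0.17. Without the 1 wk library 3, the lowest of its group at 26.6 CPM, the value at 1 wk was 0.12.

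**Figure D1:**
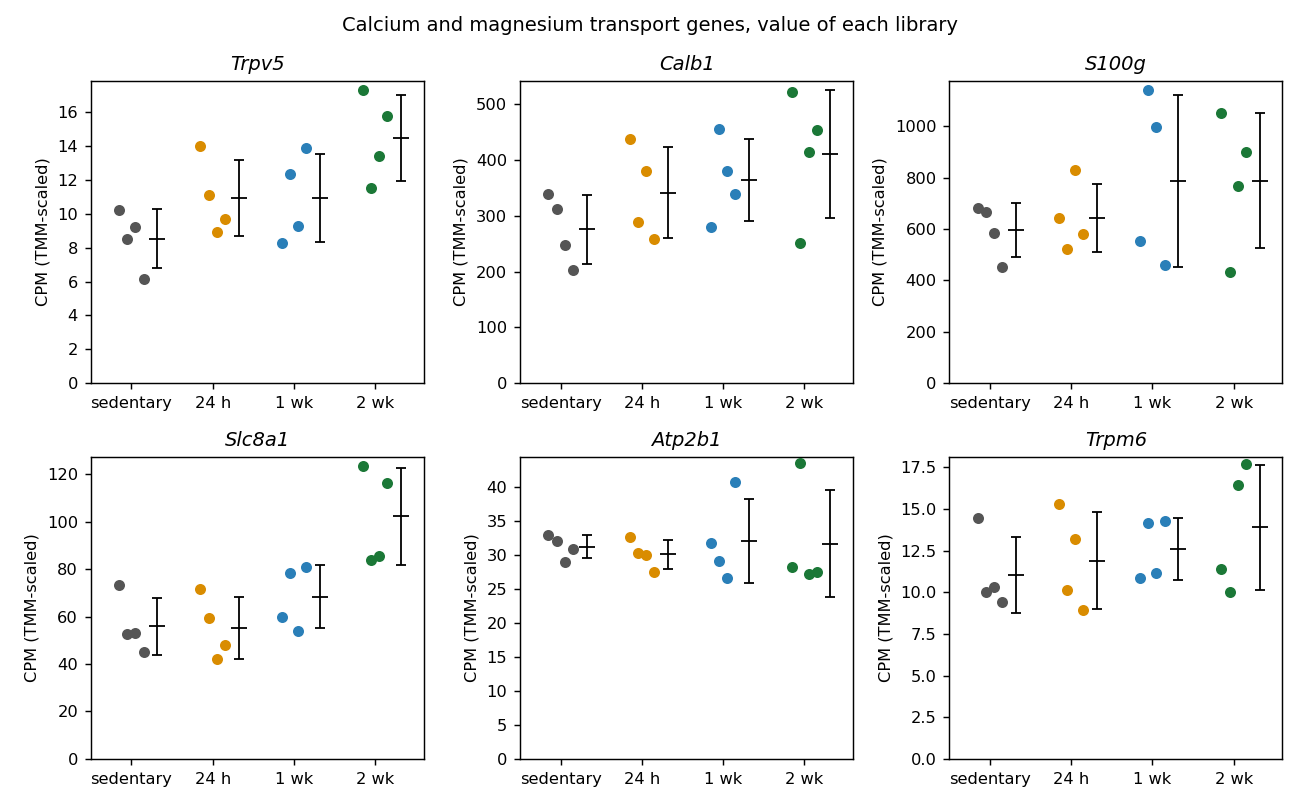
CPM (TMM-scaled, axes from 0) of the 6 calcium and magnesium transport genes in each library, by group; points are libraries in order of their number, and the bar beside them gives the mean ± SD (n = 4). Slc8a1 at 2 wk, from 83.8 to 123 CPM, lies above all other libraries, whereas Atp2b1 stays near 30.1 to 32.1 CPM in mean.

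Trpm6, the magnesium entry channel, stood at 14.5, 10.03, 10.3 and 9.43 CPM in sedentary mice and at 15.3, 10.1, 13.2 and 8.95 CPM at 24 h. It was at 10.8, 14.1, 11.2 and 14.3 CPM at 1 wk and at 11.4, 10.03, 16.5 and 17.7 CPM at 2 wk. All groups overlapped. The log2 fold change against sedentary mice was 0.11 ± 0.20 at 24 h, 0.19 ± 0.20 at 1 wk and 0.33 ± 0.19 at 2 wk (SE).

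Among the vitamin D genes of the set, Cyp27b1, which makes active vitamin D, was about as high at 24 h as at 1 wk and was back at the sedentary level at 2 wk. It stood at 4.69, 6.83, 5.21 and 6.19 CPM in sedentary mice and at 13.7, 9.94, 14.2 and 6.97 CPM at 24 h. At 1 wk it was at 7.34, 8.74, 12.8 and 13.6 CPM and at 2 wk at 3.39, 5.96, 6.38 and 4.59 CPM. The 8 libraries of 24 h and 1 wk lay above all 8 libraries of the sedentary and 2 wk groups, though the lowest at 24 h, 6.97 CPM, was close to the highest sedentary one, 6.83 CPM. Cyp27b1 was the 1 gene of the 10 whose groups did not overlap at 24 h (7.21% of all genes tested) and at 1 wk (4.22%) against sedentary mice. The fold against sedentary mice was 1.96 at 24 h (log2 0.97 ± 0.24, SE), 1.85 at 1 wk (0.89 ± 0.24) and 0.89 at 2 wk (−0.17 ± 0.24). From 1 wk to 2 wk the log2 fold change was −1.05 ± 0.24, and from 24 h to 2 wk it was −1.13 ± 0.24. Without any single library the fold ranged from 1.78 to 2.21 at 24 h and from 1.68 to 2.04 at 1 wk. The share of counts from mitochondrial genes was 3.61% to 4.52% in sedentary mice, 2.16% to 2.71% at 24 h, 2.66% to 4.09% at 1 wk and 2.99% to 4.23% at 2 wk. The 7 proximal tubule markers, of the segment that makes active vitamin D, summed to 49634 to 55726 CPM in sedentary mice and 42359 to 50642 CPM at 24 h, where 0 of 7 had a log2 fold change above 0 and none was called. Most of that sum was Kap, with means of 40403 CPM in sedentary mice and 34436 CPM at 24 h. The sum itself had means of 52235 and 45238 CPM. The part of the mitochondrial share or of the proximal tubule markers in the Cyp27b1 values was not tested.

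Cyp24a1, the hydroxylase that breaks vitamin D down, was lower in mean in each exercised group, with overlap. It stood at 122, 104, 49.95 and 102 CPM in sedentary mice and at 86.3, 70.6, 43.1 and 31.0 CPM at 24 h. At 1 wk it was at 54.7, 56.6, 75.7 and 145 CPM and at 2 wk at 43.3, 78.9, 65.5 and 41.7 CPM. In the sedentary group 3 of 4 libraries were above 100 CPM, and the 1 wk library 4 was the highest of all. The log2 fold change was −0.71 ± 0.38 at 24 h, −0.18 ± 0.38 at 1 wk and −0.72 ± 0.38 at 2 wk, and at 1 wk it ranged from −0.60 without library 4 to −0.03 without library 1. Its exons share 83 bases with Pfdn4 on the opposite strand, a gene of 12.7 CPM in mean, and the strand setting of the counting is not known.

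Within a library, Cyp27b1 came to 3.85, 6.57, 10.4 and 6.06 counts per 100 counts of Cyp24a1 in sedentary mice. The ratio was 15.8, 14.1, 32.9 and 22.5 at 24 h, 13.4, 15.4, 16.9 and 9.33 at 1 wk, and 7.84, 7.55, 9.75 and 10.997 at 2 wk. All 24 h libraries lay above all sedentary ones, and 3 of 4 at 1 wk did. The means were 6.73 ± 2.73, 21.3 ± 8.52, 13.8 ± 3.28 and 9.03 ± 1.63 in that order (SD, n = 4). This ratio, too, was chosen after the data were seen.

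Vdr, the receptor of active vitamin D, had means of 237 ± 33.9 CPM in sedentary mice, 217 ± 19.7 at 24 h, 246 ± 55.2 at 1 wk and 267 ± 46.8 CPM at 2 wk (SD, n = 4). Its groups overlapped, with log2 fold changes of −0.13 ± 0.15, 0.05 ± 0.15 and 0.17 ± 0.15 in order of duration. Without the 1 wk library 4, which was the highest of all at 323 CPM, the value at 1 wk was −0.10. Without the 1 wk library 3, the lowest of its group at 199 CPM, it was 0.14. Pth1r, the receptor of parathyroid hormone, had the smallest SE of the 10, and stood at 965 to 1057 CPM in sedentary mice and 886 to 1105 CPM in the 12 exercised libraries. Its log2 fold changes were −0.06 ± 0.08, 0.01 ± 0.08 and 0.01 ± 0.08 in the same order.

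**Figure D2:**
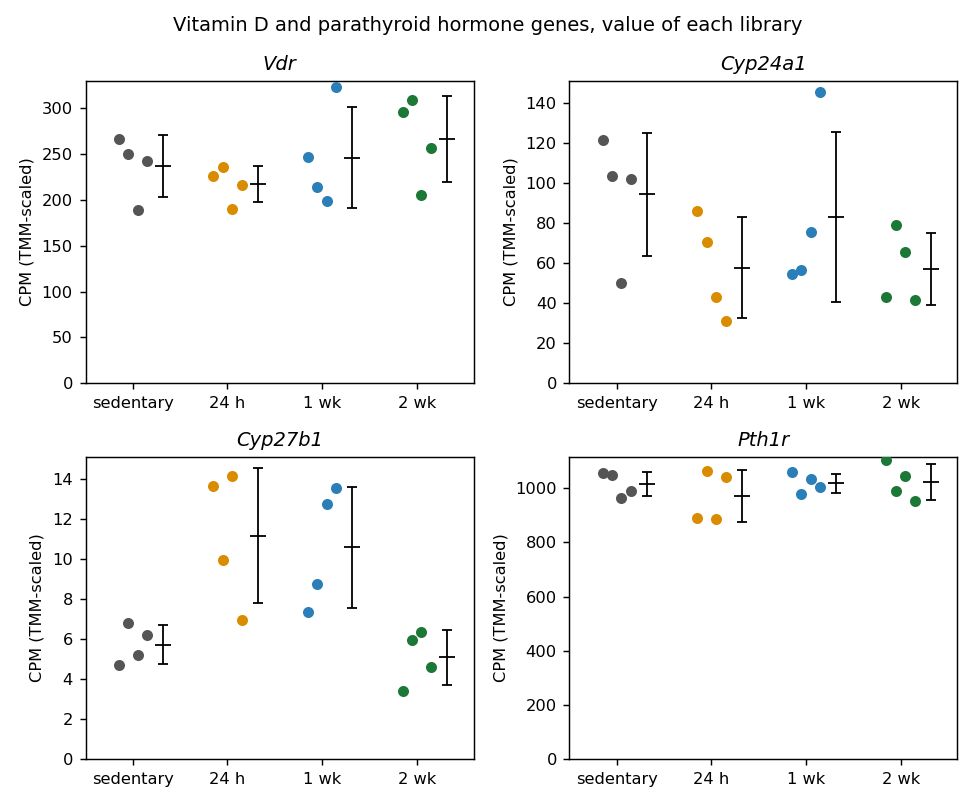
CPM (TMM-scaled, axes from 0) of the vitamin D genes and Pth1r in each library, by group, with the mean ± SD (n = 4) beside the points. Cyp27b1 at 24 h (11.2 ± 3.39 CPM) and 1 wk (10.6 ± 3.03 CPM) lies above the sedentary (5.73 ± 0.96 CPM) and 2 wk (5.08 ± 1.36 CPM) libraries.

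Over the 10 genes, the median log2 fold change against sedentary mice was 0.04 at 24 h, 0.24 at 1 wk and 0.25 at 2 wk, beside −0.005, 0.004 and 0.008 over all genes tested. The number above 0 was 5, 9 and 8 of 10, where 49%, 51.1% and 52.1% of all genes were. Since the genes were chosen with their levels in view, and several varied together, nothing is read from these medians and numbers.

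**Figure D3:**
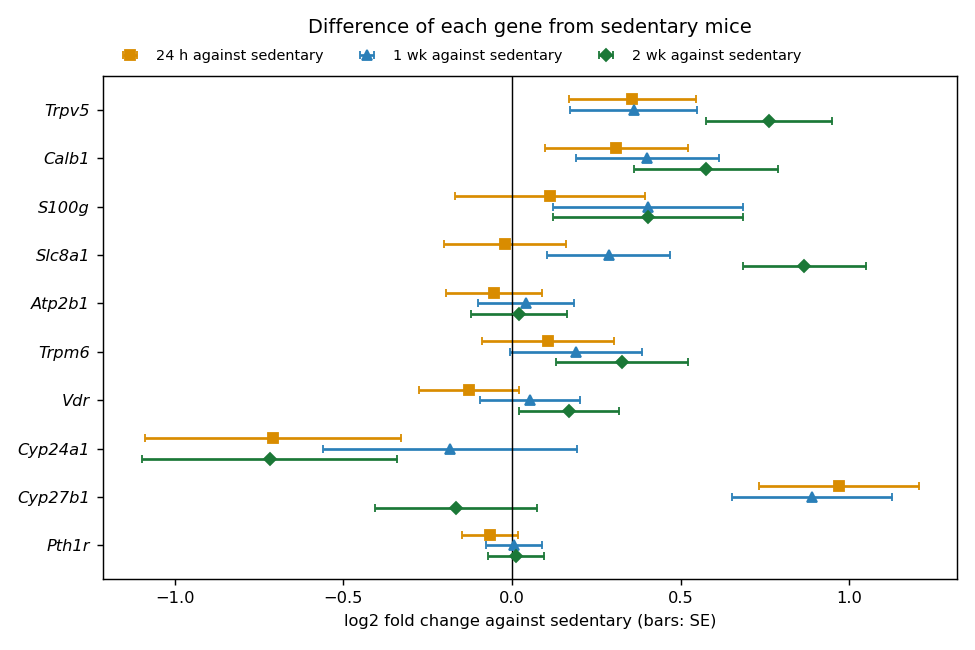
Log2 fold change of each gene against sedentary mice at 24 h, 1 wk and 2 wk, with bars of 1 SE. Slc8a1 (0.87) and Trpv5 (0.76) stand farthest right at 2 wk, and Cyp27b1 at 24 h (0.97) and 1 wk (0.89) but not at 2 wk (−0.17).

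How the genes varied together was described over the 16 libraries, which share their groups and their scaling, by Pearson's r of log2 CPM, without a test. Trpv5 and Slc8a1 ran most closely together among the 5 genes of the distal tubule (r = 0.88, and 0.91 after group means were removed). Calb1 and S100g followed (0.82, and 0.82 within groups). Over the 10 pairs of Trpv5, Calb1, S100g, Slc8a1 and Trpm6, r ran from 0.33 to 0.88. Atp2b1 went with Vdr (0.70) and against S100g (−0.65), and the score for long transcripts moved with all 3 of these, at r = 0.81 for Atp2b1, 0.78 for Vdr and −0.67 for S100g. Its part in their values was not tested. For Slc8a1, Trpv5 and Cyp27b1 the same r was 0.38, 0.25 and −0.18. Cyp27b1 and Cyp24a1 had r = 0.25, and 0.63 within groups.

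Among 12135 other genes, those whose pattern was most like that of Slc8a1 were Malrd1 (r = 0.91), Atp4a (0.90) and Insrr (0.90). For Trpv5 they were Atp4a (0.90), Phactr1 (0.90) and Kcnq1 (0.90), so that Atp4a was near both. Calb1 was nearest to Hgfac (0.91), Rhbg (0.89) and Slc44a3 (0.89), and S100g to Tmem213 (0.91), Defb1 (0.90) and Cd164l2 (0.89). Nearest to Trpm6 were Car5b, Cables1 and Pygl (0.86, 0.86 and 0.85). Cyp27b1 was nearest to Capn10 (0.85), Fam114a2 (0.80) and Aoc1 (0.78), and Cyp24a1 to Ngfr (0.86), Plpbp (0.83) and Csrnp3 (0.79). Atp2b1 was nearest to Washc5 (0.94), Card10 (0.93) and Kif21a (0.92), Vdr to Cabin1, Abca3 and Rgp1 (each 0.97), and Pth1r to Rabggta (0.89), Acy3 (0.87) and Gpt (0.86). Such values are high by selection from so many genes.

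Levels of segment markers were set beside those of the 10 genes. The summed level of 5 distal convoluted tubule markers (Slc12a3, Pvalb, Tmem52b, Klhl3 and Emx1) ran from 532 to 774 CPM in sedentary mice, 654 to 893 at 24 h, 695 to 886 at 1 wk and 822 to 957 CPM at 2 wk, where it did not overlap with the sedentary range. That of 7 connecting tubule and principal cell markers (Klk1, Hsd11b2, Scnn1b, Scnn1g, Aqp2, Aqp3 and Fxyd4) ran from 1973 to 3070 CPM in sedentary mice, 2918 to 3373 at 24 h, 2504 to 3731 at 1 wk and 2460 to 4458 CPM at 2 wk. At 2 wk 4 of 5 and 7 of 7 of these markers had log2 fold changes above 0, with none called, and none was at 0 counts in any library. Over the 16 libraries Pearson's r with the summed distal convoluted tubule markers was 0.90 for Trpv5, 0.82 for Slc8a1, 0.76 for Trpm6, 0.71 for Calb1, 0.32 for S100g, 0.20 for Atp2b1 and 0.01 for Cyp27b1. Slc12a3, which is also in the wider gene list, held most of this sum. Its mean was 404 CPM in sedentary mice and 566 CPM at 2 wk, beside 660 and 873 CPM for the sum. Pvalb was at 24.8 and 24.2 CPM in the same groups. The part of Slc12a3 in these values of r was not tested. The other sum was mostly Klk1, a kallikrein gene that is also in the wider gene list and made up 76.3% to 83.9% of it in the 16 libraries. Pearson's r with that sum and with Klk1 alone was close: 0.84 for S100g and 0.83 for Calb1 with the sum, and 0.84 and 0.85 with Klk1. With the 6 other markers, a sum chosen after the data were seen, it was 0.57 for S100g and 0.51 for Calb1. With the same 6, Slc8a1 had 0.59, Trpv5 0.49, Pth1r 0.33, Trpm6 0.28 and Vdr 0.04. Atp2b1 had −0.55, Cyp27b1 −0.56 and Cyp24a1 −0.57. These 6 markers summed to 467 to 590.1 CPM in sedentary mice and 509 to 863 CPM at 2 wk, with overlap. Per 100 CPM of the 5 distal convoluted tubule markers, Slc8a1 came to 8.46 ± 0.74 CPM in the sedentary group (SD over 4 libraries), to 7.32 ± 0.92 at 24 h, to 8.55 ± 0.59 at 1 wk and to 11.7 ± 2.43 CPM at 2 wk. This ratio was chosen after the data were seen. Its lowest 2 wk library, 9.86, lay above the highest sedentary one, 9.46. For Trpv5 the lowest at 2 wk was 1.36 and the highest sedentary one 1.34, with means of 1.67 ± 0.32 and 1.28 ± 0.09. For Calb1 the means were 47.2 ± 13.9 and 41.6 ± 5.45, with overlap.

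Markers of other cell types also differed at 2 wk. The sum of 6 intercalated cell markers ran from 223 to 280.2 CPM at 2 wk and from 171 to 213 CPM in sedentary mice, without overlap, and 6 of 6 had log2 fold changes above 0. That of 4 red blood cell markers ran from 661 to 1599 CPM at 2 wk and from 330.2 to 583 CPM in sedentary mice, without overlap, with 4 of 4 above 0. For endothelium the sum of 6 markers was 249 to 384 CPM at 2 wk and 346 to 405 CPM in sedentary mice, and for macrophages that of 5 markers was 88.3 to 116 and 107 to 121 CPM. Of these, 0 of 6 and 0 of 5 had log2 fold changes above 0. No marker of these 4 lists was at 0 counts in any library. Their part in the 2 wk values of the 10 genes was not tested.

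**Figure D4:**
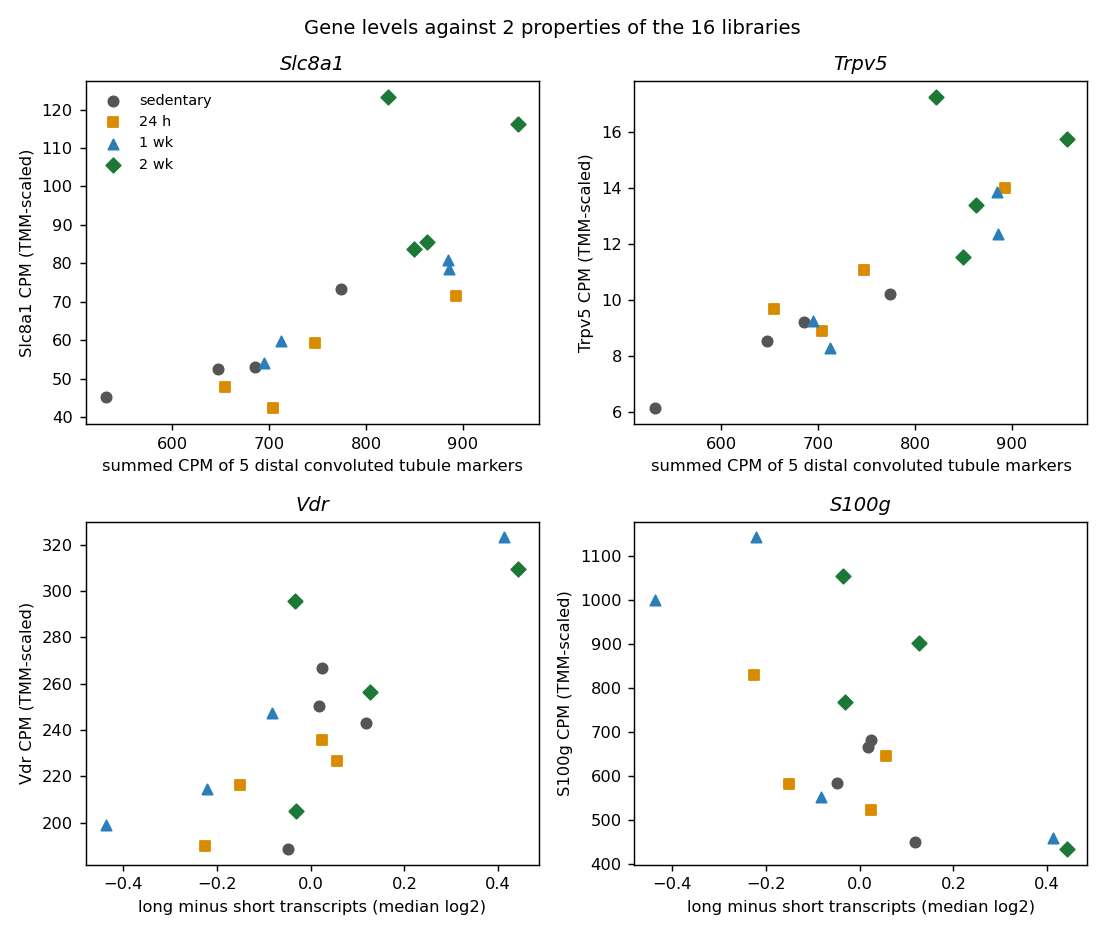
CPM (TMM-scaled) of Slc8a1 and Trpv5 against the summed CPM of 5 distal convoluted tubule markers (top), and of Vdr and S100g against the score for long transcripts (bottom); each point is 1 of 16 libraries, axes do not start at 0. Slc8a1 and Trpv5 are higher where the markers are higher (r = 0.82 and 0.90), and Vdr is higher and S100g lower where the score is higher (0.78 and −0.67).

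A wider list of 68 genes of calcium, magnesium, vitamin D and parathyroid hormone handling was tested in the same fit. Of these 61 passed the filter on low counts. Slc8a3, Kcna1, Ptp4a1, Cyp3a11, Pth2r, Pthlh and Pth did not, with at most 15 counts in a library. The symbol Ptp4a1 has more than 1 ID, and the counts of the ID used may not give the level of that gene. None of the 61 was called in any comparison, with a lowest adjusted p of 0.399 at 24 h, 0.671 at 1 wk and 0.271 at 2 wk against sedentary mice by edgeR. At an unadjusted p under 0.05 there were 2 higher and 1 lower at 24 h, 4 higher and 0 lower at 1 wk, and 10 higher and 0 lower at 2 wk. Of all genes tested, 4.49% were higher and 4.43% lower at 24 h, 2.33% and 3.72% at 1 wk, and 4.02% and 3.24% at 2 wk by that rule. DESeq2 called 1 of the 61 at 2 wk, Atp2b4 (adjusted p = 0.0217), beside 0.211% of all genes, and none at 24 h or 1 wk. The median log2 fold change of the 61 was 0.02, 0.04 and 0.07 in order of duration. This list was chosen with earlier results of these data known, so nothing is read from its counts and medians, here or by role below.

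By role, the other genes of distal calcium transport had 6 of 9 log2 fold changes above 0 at 2 wk with a median of 0.34, the highest of the 5 roles. The 3 below 0 were Anxa2 (−0.20), S100a10 (−0.09) and Nipsnap1 (−0.02). Trpv6, a relative of Trpv5, had a mean of 1.13 ± 0.28 CPM in sedentary mice (SD over 4 libraries), 1.91 ± 0.17 at 24 h, 1.48 ± 0.38 at 1 wk and 2.01 ± 0.79 CPM at 2 wk. Its 24 h libraries, at 1.66 to 2.04 CPM, all lay above the sedentary ones, at 0.77 to 1.39 CPM (log2 fold change 0.74 ± 0.27, edgeR adjusted p = 0.399). At 2 wk it was 0.81 ± 0.27 (adjusted p = 0.432), with overlap. Against sedentary mice, groups did not overlap at 24 h in 3 of the 61 genes (7.21% of all genes tested). At 2 wk they did not overlap in 6 of the 61 (4.91%). The calcium pump genes Atp2b4 and Atp2b2, picked after their values were seen, were higher at 2 wk in every library than in any sedentary one. For Atp2b4 the means were 16.98 ± 1.48 and 11.4 ± 1.60 CPM, a log2 fold change of 0.58 ± 0.13 (adjusted p = 0.271 by edgeR). For Atp2b2 they were 2.84 ± 0.66 and 1.65 ± 0.11 CPM, or 0.78 ± 0.20 (adjusted p = 0.357). Kl, whose product klotho is a cofactor of the phosphate hormone FGF23 and acts on TRPV5, was at 621 ± 72.8 CPM in sedentary mice, 616 ± 72.9 at 24 h, 641 ± 96.5 at 1 wk and 710.4 ± 99.1 CPM at 2 wk.

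The 9 genes listed under the thick ascending limb and paracellular transport (Cldn2, Cldn10, Cldn12, Cldn14, Cldn16, Cldn19, Casr, Umod and Rragd) had 4, 7 and 3 log2 fold changes above 0 in order of duration. Cldn16 and Cldn19, whose products form the pore for magnesium and calcium between cells, were at 10.8 ± 1.11 and 25.6 ± 2.35 CPM in sedentary mice and 10.6 ± 1.88 and 25.4 ± 4.33 CPM at 2 wk. Casr, the calcium-sensing receptor, was at 17.1 ± 1.58 CPM in sedentary mice and 20.7 ± 4.45 CPM at 2 wk. Cldn14, which blocks that pore, was near the limit of detection with 1 to 17 counts in a library (log2 fold change 1.62 ± 0.68 at 24 h, edgeR adjusted p = 0.496).

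Of 18 tested genes of magnesium handling, 14 were above 0 at 2 wk, with a median log2 fold change of 0.09. Slc12a3, the sodium chloride cotransporter of the cells that hold Trpm6, was at 324 to 490.1 CPM in sedentary mice and 511 to 644 CPM at 2 wk (0.49 ± 0.14, edgeR adjusted p = 0.36). At 1 wk it was at 498 ± 76.6 CPM (0.30 ± 0.14, adjusted p = 0.796). Kcnj10, a potassium channel of the same cells (0.41 ± 0.12, adjusted p = 0.374), and Cnnm4, a magnesium transport gene (0.34 ± 0.10, adjusted p = 0.38), were picked after their values at 2 wk were seen. Cnnm2, another magnesium transport gene, was at 38.3 ± 3.26 CPM in sedentary mice and 44.99 ± 2.54 CPM at 2 wk (0.23 ± 0.09, adjusted p = 0.621). The other 3 named genes had means within an SD of each other in sedentary mice and at 2 wk. Trpm7, a channel related to Trpm6, was at 51.9 ± 6.68 and 49.97 ± 11.1 CPM, Egf, whose product stimulates TRPM6, at 953 ± 113 and 979 ± 193 CPM, and Fxyd2, a subunit of the sodium pump, at 3746 ± 225 and 3601 ± 446 CPM.

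Among the vitamin D genes, Cyp27a1, a hydroxylase of sterols and vitamin D, was at 46.2 ± 2.88 CPM in sedentary mice, 48.5 ± 4.36 at 24 h, 53.5 ± 1.86 at 1 wk and 56.1 ± 5.10 CPM at 2 wk. All its libraries at 1 wk and 2 wk lay above the sedentary ones, with log2 fold changes of 0.21 ± 0.08 (edgeR adjusted p = 0.745) and 0.28 ± 0.08 (adjusted p = 0.4). It was the 1 gene of the 61 whose groups did not overlap at 1 wk against sedentary mice (4.22% of all genes tested). Rxra, the partner of the vitamin D receptor, was at 129 ± 16.3 CPM in sedentary mice and 151 ± 37.9 CPM at 2 wk. Lrp2, the uptake receptor megalin that recovers filtered vitamin D with its carrier, was at 1792 ± 213, 1523 ± 127, 1624 ± 260 and 1887 ± 437 CPM in sedentary mice and in order of duration. Cyp2r1, the hydroxylase of the first step, was at 0.91 ± 0.20 CPM in sedentary mice. Slc34a1, the proximal phosphate carrier that parathyroid hormone and FGF23 lower, was at 6938 ± 869 CPM in sedentary mice, 6487 ± 363 at 24 h, 7030 ± 692 at 1 wk and 7617 ± 1333 CPM at 2 wk.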

How the data were processed

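Polyadenylated RNA of mouse kidney cortex was sequenced from libraries made with a strand-marking kit, per the labels' protocols. Values in the table the authors deposited are unnormalized gene counts, made with HTSeq 0.10.0 on GRCm38 (mm10) after FastQC 0.10.1, per the submitters' processing notes; the sources used here do not give the aligner, annotation release or strand setting. Of its 24 columns, 16 were joined to samples by library name and 8 that match no sample were not used. IDs were named from GENCODE M21 (52081 of 55414, 94%), which also gave positions and exonic lengths.

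Counts were fitted in R 4.3.3 with edgeR 4.0.16 (filterByExpr by group, which left 16126 genes, TMM scaling, robust quasi-likelihood F-test, Benjamini-Hochberg adjustment over all genes, threshold 0.05) with all 16 libraries in 1 fit. CPM is scaled by TMM; ± is SD for CPM and SE for log2 fold changes. Alternatives were DESeq2 1.42.0, voom with quality weights in limma 3.58.1, other scalings and filters, a replicate block and leaving out each library. The code of the fit was tested on simulated counts with independent libraries and the same spread setting for every gene. These libraries differ from that setting, so the simulation does not show how well the fit finds changes in them. The genes, lists and the rule for named genes were chosen with earlier results of these data known. By that rule the 10 genes, 16 further pathway genes, any pathway gene past the threshold, and for each of the 10 the 3 genes of highest Pearson's r (no clone names, mean log2 CPM not below 0) were named. Where a symbol had more than 1 ID (Ptp4a1), the ID with most counts was used. No library repeated another: within groups, chi-square over its degrees of freedom was 7.88 or more for every pair.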

Additional observations from a re-analysis of the deposited data

Results flagged for a closer look

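Of the 40 sets of 4 libraries (10 genes in 4 groups), 1 held a library far from the others, where chance gives about 1 in 20 sets. Atp2b1 was at 43.4 CPM in the 2 wk library 2, and the other 3 libraries of that group were at 27.2 to 28.3 CPM. The gap was 0.94 of the range of the group. The same library had the highest score for long transcripts (0.44) and the lowest S100g of the series (434 CPM), and the part of the score in the Atp2b1 value was not tested.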

How the results depend on the processing

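The log2 fold changes of the 10 genes moved by less than the SD between libraries under every alternative run, in 960 values. Leaving out 1 of 4 libraries can hardly move a group mean by that SD, so those fits say little here. Within that limit, values at 1 wk against sedentary mice still ran from −0.60 to −0.03 for Cyp24a1 without single libraries. For S100g they ran from 0.17 to 0.60. Values near 0 changed sign, among them those of Slc8a1 at 24 h and of Atp2b1 and Vdr at 1 wk. Counts of calls depended on the tool. For all genes, DESeq2 called 86 at 24 h, 15 at 1 wk and 34 at 2 wk against sedentary mice, 59 at 1 wk against 24 h, 4 at 2 wk against 1 wk, 39 at 2 wk against 24 h and 163 over all groups. Voom called 49, 6 and 6 against sedentary mice, 1 at 2 wk against 1 wk and 33 over all groups. With no filter, edgeR called 9 at 24 h, 5 at 2 wk, 8 at 2 wk against 24 h and 10 over all groups. With library totals it called 2 at 24 h and 4 at 2 wk against 24 h, with a CPM of at least 1 in 4 libraries 4 there, and with only the groups compared 28 at 24 h and 2 at 2 wk. The cause of these differences was not tested. Of the 10 genes, DESeq2 called 1 at 24 h (Cyp27b1), 2 at 2 wk (Trpv5, Slc8a1), 1 at 2 wk against 1 wk (Cyp27b1), and 2 both at 2 wk against 24 h and over all groups (Slc8a1, Cyp27b1). Of the other pathway genes it called 1 at 2 wk and 1 over all groups, where voom also called 1, in each case Atp2b4. Nothing is read from these calls, since the 10 genes and the wider list were chosen with earlier results of these data known.

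The titles number the libraries of each group, but nothing says what a number marks. Deviations of same-numbered libraries correlated at −0.24 to 0.37, and 7 of 16 libraries correlated best with their own number. With the number as a replicate block, 5 genes were called at 2 wk against sedentary mice and 5 over all groups. At 2 wk against 24 h 11 were called, among them Slc8a1, the 1 of the 10 genes called with this block. As Slc8a1 was chosen with its values in view, nothing is read from that call. Over the fits that left out 1 library each, calls ranged from 0 to 5 over all groups, 0 to 2 at 1 wk against 24 h, 0 to 1 at 1 wk, 0 to 7 at 2 wk against 24 h and 0 to 8 at 2 wk, and stayed at 0 in the other comparisons. The highest counts came without the 1 wk library 1 (5 over all groups, 1 at 1 wk), the 24 h library 2 (2 and 7) and the 2 wk library 3 (8). None of the 10 genes was called in those fits, and of the other pathway genes 0 to 1, Gc at 2 wk against 24 h without the 24 h library 2. The fewest counts of any of the 10 genes in a library were 140 (Cyp27b1), against 1 for Cldn14, whose change depth limits.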

Other observations

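Gc, which encodes the vitamin D-binding protein of plasma, varied widely between libraries at 24 h and was picked after its values were seen. It was at 45.7, 10.5, 44.9 and 22.3 CPM at 24 h, against 15.6 to 21.9 CPM in sedentary mice, 12.9 to 17.6 CPM at 1 wk and 6.06 to 17.6 CPM at 2 wk. From 24 h to 2 wk its log2 fold change was −1.56 ± 0.39 (SE, edgeR adjusted p = 0.319), and the 24 h library 2 lay below all sedentary libraries while 3 of 4 lay above them.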
